A study of Mus musculus with 8 samples.

Results

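The expression difference between rcCHIL3 and growth factor medium after 7 days was examined in neural stem cells (NSCs), over all probe sets with usable signal on the 4 arrays of that day. NSCs from the brains of adult mice, according to the series description, had been expanded and cultured as neurospheres, floating spheres that hold stem cells together with their progeny. The study's methods name wild-type C57BL/6J adults and ICR embryos, but no source used here ties a strain, sex or number of mice to an array. rcCHIL3 is the label RcECF-L 7D (ECF-L is another name of CHIL3), in MHM medium conditioned by HEK293T cells, a human kidney line, that carry transfected Chil3. The label MHM 7D stands for MHM + GF, the same basal medium with the growth factors EGF and FGF-2, and the source labels call it culture without ECF-L. No array of mock-conditioned medium was used here, and no source states that EGF and FGF-2 were added to rcCHIL3, so the protein, the other products of the HEK293T cells and the absence of added growth factors cannot be told apart. Each group had 2 arrays, described as independent experiments, and 2 further pairs of arrays held the same media at 3 days.

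CHIL3 (Ym1) is a secreted chitinase-like lectin without chitinase activity, best known as a product of alternatively activated macrophages. In neurosphere culture EGF and FGF-2 keep NSCs in the cell cycle through receptor tyrosine kinases, and their withdrawal is the usual way to let the cells leave the cycle and form neurons, astrocytes and oligodendrocytes. Spheres of this kind hold proliferating progenitors, postmitotic neuroblasts and glia side by side, so an array of a whole sphere averages over them. A lower signal of a cell type marker can come from fewer cells of that type or from less RNA in each, which cannot be told apart here.

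Of 45037 probe sets other than array controls, 15679 reached a signal of 50 on at least 2 of the 8 arrays and were tested, and 14586 of these reached it on at least 2 of the 4 day 7 arrays. Signals are MAS5 intensities rescaled so that the average of each array is 100, and changes are differences of log2(signal + 20), which understate the change of dim genes. The deposited averages of the 4 day 7 arrays lay between 281.3 and 311.5, and arrays of 1 group correlated at 0.992 to 0.994. The 3′ to 5′ signal ratio of actin, a sign of RNA integrity, was 1.65 and 1.83 in MHM + GF and 1.46 and 1.57 in rcCHIL3 at 7 days, so it was higher in MHM + GF. The same ratio of Gapdh was 0.82 and 0.89 in MHM + GF and 0.85 and 0.87 in rcCHIL3, so it did not separate the media. The part of RNA integrity in the results was not tested. With 2 arrays a group, precision is limited by their number.

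A limma model with adjustment by the Benjamini-Hochberg method called 21.3% of the tested probe sets higher and 22.7% lower with rcCHIL3 at 7 days. Among the 14586 probe sets, 3226 were higher and 3300 lower at the threshold of 0.05. On the deposited scale, without rescaling of the arrays, 63.8% of the called probe sets were higher (4115 against 2337 lower), in place of 48.5% (3343 against 3556). Most of the called differences were small. The median log2 change was 0.43 among the higher and -0.42 among the lower, 83.2% of all changes lay within 0.5 of 0 on the log2 scale, and the median standard error (SE) was 0.09. At least 2-fold differences were called for 290 probe sets upward and 217 downward, and at least 4-fold differences for 33 and 17. At the edge of the filter, the second highest day 7 signal was 50.0035 in the dimmest probe set that was kept and 49.9812 in the brightest that was not.

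The filter itself shaped some calls. A signal of 50 was reached on all 4 arrays by 12454 probe sets, with 2677 higher and 2561 lower. Another 499 passed through the 2 rcCHIL3 arrays alone, of which 409 were higher, and 644 through the 2 MHM + GF arrays alone, of which 549 were lower. Those sets passed by being bright in 1 group, so their direction follows from the filter. With 1 probe set for each gene, the brightest, 8514 genes were measured at 7 days, of which 22.4% were higher and 22.4% lower, with a median log2 change of -0.003. The counts in each gene group at 7 days are given beside these shares, and a group whose count lies near them is described without being set apart.

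**Figure D1:**
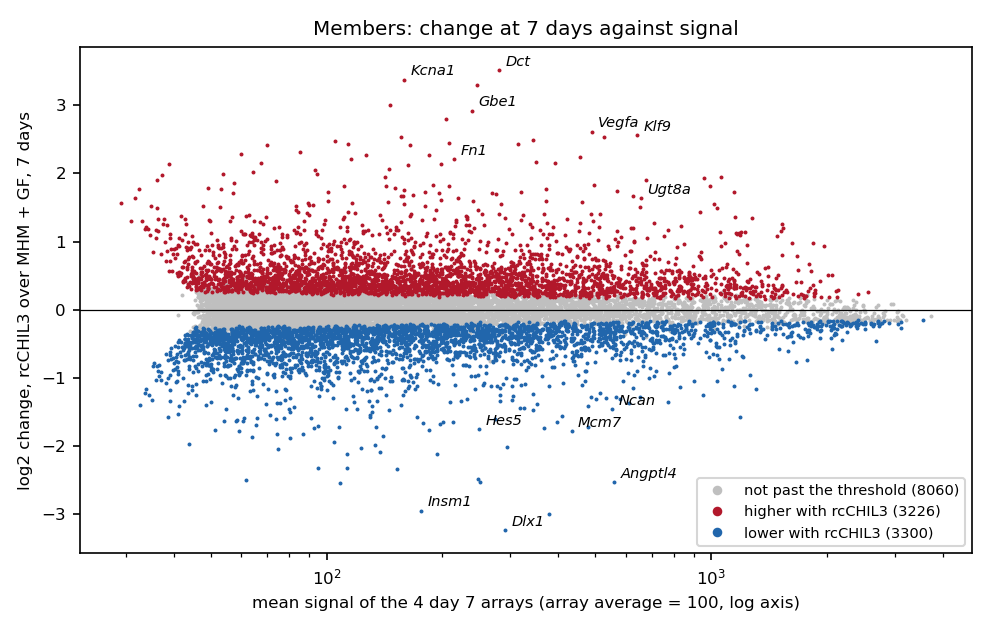
Log2 change (rcCHIL3 over MHM + GF at 7 days, vertical axis) against the mean signal of the 4 day 7 arrays (array average 100, log axis) for the 14586 probe sets, with the 3226 higher in red, the 3300 lower in blue and the rest in grey. Most called changes lie close to 0 at every signal, and the named genes mark the extremes, from Dct at 3.52 to Dlx1 at -3.24.

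Among the 15 largest rises were genes of ion channels, pigment synthesis, glial membranes and low-oxygen metabolism. Dct, an enzyme of melanin synthesis, had signals of 547 and 520 with rcCHIL3 and of 30.4 and 26.3 in MHM + GF. Its log2 change of 3.52 (SE 0.12, adjusted p = 8.9e-09) was the largest rise among the named genes. Kcna1, a voltage-gated potassium channel, had signals of 331 and 281 against 9.49 and 13.2 (3.38, SE 0.11). Pcp4, a small regulator of calmodulin, gave 441 and 486 against 29.7 and 28.1 (3.31, SE 0.11). In each of these 3 genes both rcCHIL3 arrays lay above both MHM + GF arrays, which the rule for naming the largest rises required. All 3 passed the filter through the rcCHIL3 arrays alone. Hspb6, a small heat shock protein, rose from 45.0 and 56.6 in MHM + GF to 356 and 372 with rcCHIL3 (2.44, SE 0.09). Carns1, the enzyme that makes carnosine, rose by 2.53 (SE 0.16) and was more variable, with 312 and 247 against 31.9 and 31.2. Pmp22 and Mal, both proteins of myelin membranes, rose by 2.17 (SE 0.07) and 2.13 (SE 0.14). For Mal the MHM + GF arrays themselves differed (48.5 and 75.1), while the rcCHIL3 arrays gave 338 and 330.

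Klf9, a transcription factor that responds to glucocorticoids, was bright in both media. It had signals of 1042 and 1185 with rcCHIL3 and of 170 and 174 in MHM + GF, a rise of 2.56 (SE 0.08, adjusted p = 5.7e-09). All 5 of its probe sets at usable signal rose, by 1.86 to 2.56. Fn1, the matrix glycoprotein fibronectin, had signals of 355 and 375 against 63.9 and 62.8 (2.21, SE 0.11). Ifitm3, an antiviral membrane protein, had 692 and 618 against 125 and 139 (2.15, SE 0.09). The media did not overlap for either gene, which the rule for naming the largest rises required.

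The 15 largest falls included transcription factors of interneurons and neuronal progenitors. Dlx1, a homeobox factor of GABAergic interneurons, had signals of 36.9 and 42.9 with rcCHIL3 and of 541 and 546 in MHM + GF, a log2 change of -3.24 (SE 0.10, adjusted p = 5.7e-09). Insm1, a zinc finger factor of neuronal and neuroendocrine progenitors, had 23.8 and 26.6 against 327 and 329 (-2.95, SE 0.11). Dlx2, the partner of Dlx1, had 48.3 and 76.3 against 386 and 481 (-2.48, SE 0.16). The arrays of 1 medium agreed closely for Dlx1 and Insm1 and less so for Dlx2.

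The secreted proteins among the falls were Angptl4, Mdk, Rnase4 and Nbl1. Angptl4, an inhibitor of lipoprotein lipase that is itself a target of fatty acid and low-oxygen signals, had signals of 158 and 144 with rcCHIL3 and of 1022 and 915 in MHM + GF (-2.53, SE 0.08). It thus fell while most of the low-oxygen genes described below rose. Mdk, the growth factor midkine, had 36.4 and 37.9 against 283 and 254 (-2.33, SE 0.09). Nbl1, an antagonist of BMP ligands, had 46.2 and 38.1 against 215 and 235 (-1.98, SE 0.12). Rnase4, a secreted ribonuclease, gave 105 on both rcCHIL3 arrays against 464 and 505 (-2.01, SE 0.10). Nnat, a small membrane protein of developing neurons, fell by 1.68 (SE 0.15), Cyp2j9, a cytochrome P450, by 1.76 (SE 0.09), and Tcl1b3 by 1.66 (SE 0.15).

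**Figure D2:**
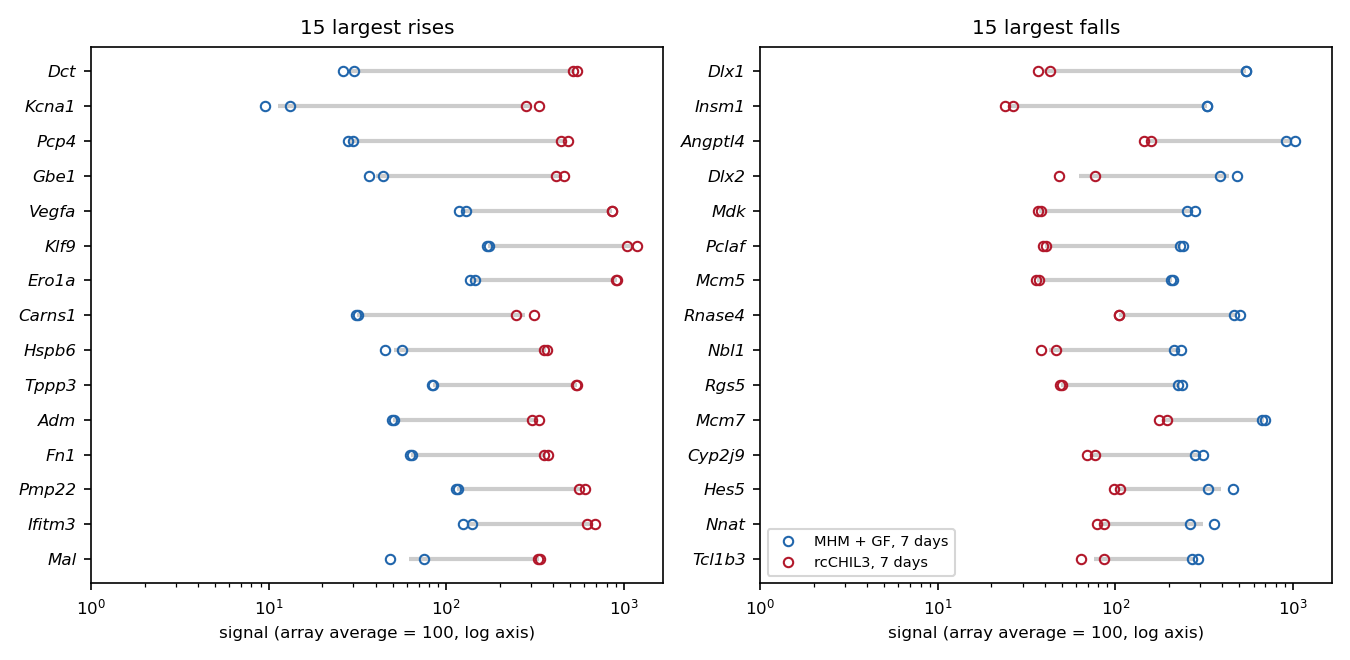
Signal on each of the 4 day 7 arrays (horizontal log axis, array average 100) for the 15 largest rises and 15 largest falls, with circles for single arrays (red rcCHIL3, blue MHM + GF, 2 of each) and grey bars between group means. In every gene shown the groups do not overlap, which the rule for naming these genes required, and the distance between the groups is wider than that between the arrays of a group.

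Genes of glycolysis and of the response to low oxygen were higher with rcCHIL3 nearly throughout. Of 26 such genes with a probe set, 24 were measured at 7 days, and 23 of them were higher, none was lower and Hk1 did not pass the test, beside 22.4% higher over all genes. Their median log2 change was 1.61, against -0.003 over all genes. The 18 that reached the filter signal on all 4 arrays held 17 of these rises. In the fit with no filter on signal, 25 of the 26 were higher and none was lower.

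The genes that rose covered glucose uptake, enzymes of glycolysis and the sensors of oxygen. Slc2a1, the glucose transporter GLUT1, had signals of 943 and 987 with rcCHIL3 and of 278 and 303 in MHM + GF (1.67, SE 0.07). Hk2, the inducible hexokinase, had 185 and 200 against 19.4 and 16.8 (2.48, SE 0.09), whereas Hk1, the constitutive hexokinase, had 479 and 493 against 441 and 427 (0.16, SE 0.07, adjusted p = 0.071). Among the later enzymes, Pfkl and Pfkp (phosphofructokinase) rose by 1.67 and 1.41, Tpi1 (triosephosphate isomerase) by 1.25, Pgk1 (phosphoglycerate kinase) by 0.99, Pkm (pyruvate kinase) by 1.13 and Aldoa (aldolase) by 0.68. Ldha, which turns pyruvate into lactate, had 1526 and 1594 against 458 and 398 (1.82, SE 0.07). Pdk1, the kinase that keeps pyruvate out of mitochondria, rose by 1.18 (SE 0.08).

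Targets of hypoxia-inducible factors outside glycolysis were higher as well. Vegfa, the vascular growth factor, had 856 and 853 against 129 and 117 (2.61, SE 0.08). Adm, the vasodilator peptide adrenomedullin, had 305 and 334 against 49.8 and 50.7 (2.27, SE 0.08), and the brightest probe set of Ero1a, the oxidase of the endoplasmic reticulum, had 904 and 919 against 136 and 145 (2.54, SE 0.08). Gbe1, the glycogen branching enzyme, had 461 and 413 against 43.8 and 36.8 (2.92, SE 0.17). Ankrd37, a small ankyrin repeat protein, rose from 9.13 and 7.62 to 130 and 134 (2.42, SE 0.12). Egln3, an oxygen-sensing hydroxylase, rose by 1.82 (SE 0.09), its relative Egln1 by 1.05 (SE 0.07), and P4ha1 and P4ha2, which hydroxylate collagen prolines, by 1.73 and 1.99. The smallest called rise was that of Ndrg1 (0.46, SE 0.07). Car9, a carbonic anhydrase that is a classical low-oxygen target, stayed under the filter, at 24.4 and 24.2 with rcCHIL3 and 6.58 and 7.20 in MHM + GF.

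The letters ACGTG, the core of the element that hypoxia-inducible factors bind, were looked for on both strands of the RefSeq promoter windows (GRCm38.p6, 250 bases before to 50 after each start). They stood in 18 of the 30 windows of the 23 matched genes of this group (60.0%), in 26.1% of the 9091 windows of all measured genes and in 19.6% of all 32851 windows. They were also in 27.6% of the windows of genes at least 2-fold higher and in 16.5% of those at least 2-fold lower. A match is a description of these letters and not of a bound site. The stretches of 5 of the genes that rose are given to show where the letters lie, each 5′ to 3′ on the strand of the gene. Only the match nearest the gene start that had full flanks is in capitals, with its position counted from that start. It reads ACGTG, or CACGT where it lies on the other strand. A further match in a stretch, as in Ldha, is left in small letters.
Ero1a, chr14:45318606-45318660, minus strand, motif from position -63: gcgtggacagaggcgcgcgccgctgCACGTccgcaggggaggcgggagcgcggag
Hk2, chr6:82774477-82774531, minus strand, motif from position -52: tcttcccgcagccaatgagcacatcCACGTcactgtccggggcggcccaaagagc
Ldha, chr7:46845745-46845799, plus strand, motif from position -34: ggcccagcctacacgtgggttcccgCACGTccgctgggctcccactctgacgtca
Slc2a1, chr4:119108684-119108738, plus strand, motif from position -36: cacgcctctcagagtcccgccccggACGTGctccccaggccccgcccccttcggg
Bnip3, chr7:138909584-138909638, minus strand, motif from position -107: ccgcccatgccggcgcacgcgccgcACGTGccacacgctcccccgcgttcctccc
In these 5 genes the printed match lay before the start. In P4ha2 and Pkm, which also rose and are not printed, the nearest match lay after it, from positions 10 and 8.

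These genes had the opposite sign at 3 days. The arrays of 3 days are separate from those of 7 days, and there 21 of the 24 genes were lower with rcCHIL3 and 1 was higher (median log2 change -0.79), beside 22.5% lower and 27.7% higher over all tested probe sets. The test of the difference between the days gave a larger effect at 7 days for 23 and a smaller one for Hk1 alone, beside 18.7% larger and 22.7% smaller over all tested probe sets. From 3 to 7 days 22 of the 24 were lower in MHM + GF (26.0% of tested probe sets) and 1 was higher (31.1%), with a median of -1.50. In rcCHIL3 22 were higher at 7 days (18.0% of tested probe sets) and none was lower (17.9%), with a median of 0.67. These comparisons share the day 7 arrays with the difference between media. Hk2 showed the part of MHM + GF most plainly. Its mean signal went from 389 to 18.1 in MHM + GF (-3.43, adjusted p = 2.54e-10) and from 158 to 193 in rcCHIL3 (0.26, adjusted p = 0.040). Gbe1 showed the opposite, from 53.7 to 40.3 in MHM + GF (adjusted p = 0.21) and from 47.2 to 437 in rcCHIL3 (2.78, SE 0.17).

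Genes of cholesterol synthesis were higher with rcCHIL3 by smaller amounts. Of 16 with a probe set, 15 were measured, 14 were higher and none was lower, beside 22.4% in each direction over all genes, with a median of 0.39. Among the 14 at the filter signal on all 4 arrays 13 were higher, and with no filter 13 of the 16 were higher and none was lower. Dhcr7, the last enzyme of the pathway, had 145 and 180 with rcCHIL3 and 59.3 and 85.1 in MHM + GF (0.99, SE 0.14). Msmo1, a sterol oxidase, had 610 and 628 against 341 and 300 (0.91, SE 0.08), Fdft1 (squalene synthase) rose by 0.67 (SE 0.06) and Nsdhl, a sterol dehydrogenase, by 0.65 (SE 0.08). The brightest probe set of Sc5d did not pass the test (0.20, adjusted p = 0.10), while the other was higher (0.40). From 3 to 7 days all 15 measured genes were lower in both media, by a median of -2.13 in MHM + GF (26.0% of tested probe sets lower) and -0.98 in rcCHIL3 (17.9% lower). At 3 days 11 of the 15 had been lower with rcCHIL3 (22.5% of tested probe sets), and the effect was larger at 7 days for 14 (18.7%).

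Genes that carry cells through S phase and mitosis were lower with rcCHIL3. Of 27 genes of DNA replication with a probe set, 18 were measured at 7 days, 17 of these were lower and none was higher, beside 22.4% lower over all genes, with a median log2 change of -0.94. Among the 11 at the filter signal on all 4 arrays 10 were lower, and with no filter 22 of the 27 were lower and none was higher. Mcm5, a subunit of the replicative helicase, had 35.5 and 36.9 with rcCHIL3 and 206 and 212 in MHM + GF (-2.03, SE 0.08). Mcm7, of the same complex, had 195 and 175 against 668 and 698 (-1.78, SE 0.07). Rrm2, the regulatory subunit of ribonucleotide reductase, had 95.6 and 90.2 against 325 and 343 (-1.65, SE 0.07). Pclaf, a factor that binds the sliding clamp PCNA, had 39.3 and 40.5 against 231 and 240 (-2.09, SE 0.07), while Pcna itself kept higher levels and a smaller difference, with 725 and 836 against 987 and 1046 (-0.38, SE 0.07). The flap endonuclease Fen1 did not pass the test (-0.29, adjusted p = 0.26).

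Of 29 mitosis genes with a probe set, only 14 reached the filter signal at 7 days, and only 3 of these did so on all 4 arrays, so that the direction of the others follows in part from the filter. All 14 were lower, beside 22.4% lower over all genes, with a median of -1.07. With no filter 28 of the 29 were lower and none was higher. Mki67, the proliferation antigen, had 25.7 and 17.6 with rcCHIL3 and 129 and 125 in MHM + GF (-1.83, SE 0.10). Top2a, which untangles sister chromosomes, had 41.6 and 36.9 against 182 and 169 (-1.72, SE 0.08). Ube2c, the ubiquitin-conjugating enzyme of mitotic exit, had 15.4 and 17.2 against 88.2 and 96.0 (-1.63, SE 0.10), and Ccna2 (cyclin A) had 19.4 and 21.5 against 104 and 98.4 (-1.59, SE 0.09). Every one of these 4 genes was dimmer than the array average in rcCHIL3.

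The deficit in these genes was smaller at 7 than at 3 days. At 3 days the 14 mitosis genes were lower by a median of -2.67, and the test between the days called a larger (less negative) effect at 7 days for all 14. Over all tested probe sets the effect was larger at 7 days for 18.7% and smaller for 22.7%. For DNA replication the median at 3 days was -1.38, and the effect was less negative at 7 days for 9 of the 18 and more negative for Mcm7 alone. From 3 to 7 days the mitosis genes fell for all 14 in MHM + GF (median -2.19) and for 13 in rcCHIL3 (median -0.73). The replication genes fell for 15 of 18 in MHM + GF (median -0.61), whereas in rcCHIL3 5 fell, 1 rose and 12 were not called (median -0.15), beside 26.0% and 17.9% of tested probe sets lower. Over the same days Mki67 went from 751 to 127 in MHM + GF and from 87.3 to 21.7 in rcCHIL3. Both media were thus lower at 7 than at 3 days for this gene, and MHM + GF by more.

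The letters TTTGAA or TTCGAA, the cell cycle homology region of mitotic promoters, were in 11 of the 14 windows of 13 matched mitosis genes (78.6%). They were in 13.0% of the windows of all measured genes and in 19.2% of all windows. CCAAT, which often accompanies them, was in 71.4% of the mitosis windows, 37.6% of those of all measured genes and 37.4% of all. TTTCCCGC or TTTGGCGC, forms of the site of E2F factors, were in 7 of the 20 windows of 15 matched replication genes. They were in 2.98% of the windows of all measured genes and in 1.56% of all windows. Both strands were searched, TTCGAA reads the same on both, and overlaps between motifs were not removed. The stretches of 4 mitosis genes and 3 helicase genes with the largest falls among those with a match are printed to show these letters. Only the match nearest the gene start that had full flanks is in capitals, and a further match, as in Mki67, is left in small letters. TTCAAA and GCGCCAAA or GCGGGAAA are the same letters on the other strand.
Mki67, chr7:135716447-135716502, minus strand, motif from position -98: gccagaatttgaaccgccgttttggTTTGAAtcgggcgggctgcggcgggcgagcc
Top2a, chr11:99024182-99024237, minus strand, motif from position -23: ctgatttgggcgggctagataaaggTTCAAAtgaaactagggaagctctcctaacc
Ube2c, chr2:164769875-164769930, plus strand, motif from position -29: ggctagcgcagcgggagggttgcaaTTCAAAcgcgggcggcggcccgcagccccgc
Kif2c, chr4:117178845-117178900, minus strand, motif from position -103: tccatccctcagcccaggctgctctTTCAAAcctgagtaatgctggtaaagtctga
Mcm5, chr8:75109335-75109392, plus strand, motif from position -149: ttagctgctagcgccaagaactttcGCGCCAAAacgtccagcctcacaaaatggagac
Mcm7, chr5:138172016-138172073, minus strand, motif from position -165: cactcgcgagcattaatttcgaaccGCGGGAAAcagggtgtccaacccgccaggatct
Mcm6, chr1:128359720-128359777, minus strand, motif from position -47: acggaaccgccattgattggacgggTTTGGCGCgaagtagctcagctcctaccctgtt
The first 4 carry TTTGAA on one strand or the other, and the 3 helicase genes an E2F form.

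The cyclins and kinases of G1 and their inhibitors did not move together. Of 11 measured, 3 were higher and 6 lower, beside 22.4% in each direction over all genes. Of the 10 at the filter signal on all 4 arrays, 3 were higher and 5 lower. Ccnd2 (cyclin D2) had 560 and 543 with rcCHIL3 and 1357 and 1338 in MHM + GF (-1.26, SE 0.06), and all 6 of its probe sets fell, by -1.26 to -1.72. Cdk6 had 13.2 and 13.9 against 66.3 and 72.1 (-1.41, SE 0.10), Cdk4 fell by 0.61 (SE 0.08) and Ccnd1 (cyclin D1) by 0.53 (SE 0.07). Among the inhibitors, Cdkn1a (p21) had 1576 and 1709 against 753 and 933 (0.95, SE 0.09), and Cdkn1c (p57) and Cdkn2b (p15) rose by 0.40 and 0.28, whereas Cdkn1b (p27) and Cdkn2c (p18) were lower, at -0.36 and -0.58. The inhibitors thus went both ways.

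Targets of p53, of which Cdkn1a is one, were higher for 7 of 12 genes and lower for none, beside 22.4% in each direction over all genes, with a median of 0.32. Among the 11 at the filter signal on all 4 arrays 6 were higher, and with no filter 5 of the 12. Phlda3, a repressor of AKT, had 465 and 462 with rcCHIL3 and 200 and 150 in MHM + GF (1.32, SE 0.10). Fas, the death receptor, rose by 0.53 (SE 0.15) and Mdm2, the ubiquitin ligase of p53, by 0.40 (SE 0.09). The call for Fas was lost without MHM + GF replicate 2 at 7 days (0.39, adjusted p = 0.10) and without rcCHIL3 replicate 2 (0.51, adjusted p = 0.064). Bbc3 (PUMA), which drives apoptosis, was not called (-0.12).

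The immediate targets of growth factor signaling, which answer to ERK, showed no common direction. Of 13 measured, 3 were higher, 2 lower and 8 did not pass the test, beside 22.4% in each direction over all genes, with a median of 0.14. Etv5, an ETS factor induced by FGF, had 95.7 and 96.2 with rcCHIL3 and 156 and 132 in MHM + GF (-0.50, SE 0.11), and Dusp4, an ERK phosphatase, fell by 0.43. Dusp6 (0.17), Spry2 (0.06) and Spry4 (0.26), the feedback inhibitors of the pathway, were not called. Egr2, an early growth response factor, had 212 and 202 against 81.0 and 74.6 (1.22, SE 0.08), Phlda1 had 419 and 427 against 189 and 180 (1.12, SE 0.08) and Ier3 had 480 and 542 against 231 and 241 (1.05, SE 0.07). For Etv5 the effect had been -2.86 at 3 days, and the difference between the days was 2.36 (SE 0.16, adjusted p = 8.7e-07).

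Genes that FOXO factors activate when growth factor signaling is low went both ways. Of 13 measured, 4 were higher and 6 lower, beside 22.4% in each direction over all genes. Among the 12 at the filter signal on all 4 arrays, 4 were higher and 5 lower. Besides Klf9, Klf4, a factor of epithelial and stem cells, had 325 and 285 with rcCHIL3 and 171 and 191 in MHM + GF (0.69, SE 0.10). Pik3ip1, an inhibitor of PI3 kinase, had 197 and 181 against 386 and 408 (-0.996, SE 0.07), and Sesn3, a stress sensor, fell by 0.71 (SE 0.07).

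**Figure D3:**
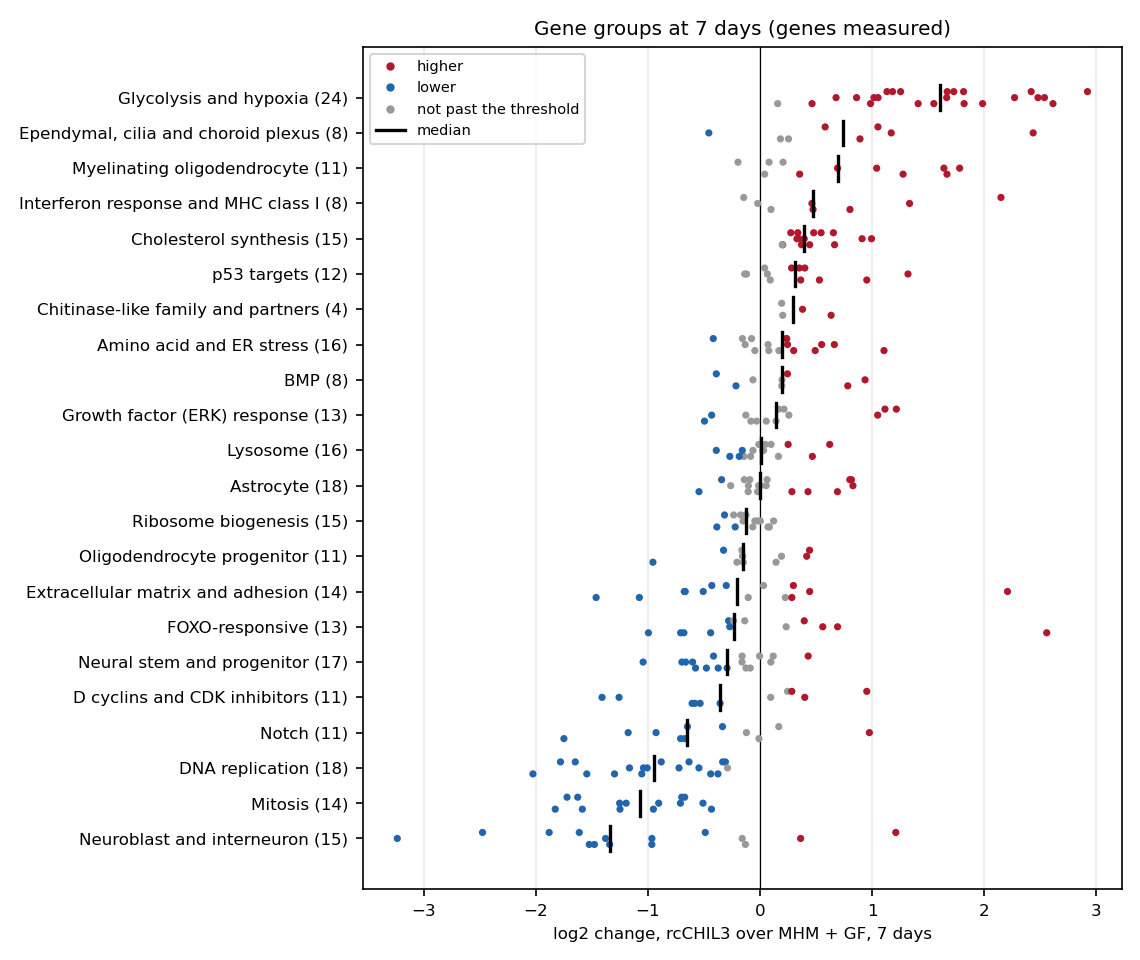
Log2 change (rcCHIL3 over MHM + GF, 7 days) of each measured gene, 1 point per gene, in the 22 gene groups with at least 4 measured genes, sorted by their median (black bar), with the number of genes in parentheses and colour for genes called higher (red), lower (blue) or not called (grey). Glycolysis and hypoxia stand at the top with a median of 1.61, and DNA replication, mitosis and the neuroblast genes at the bottom, at -0.94, -1.07 and -1.34. Genes that passed the filter through the arrays of a single medium are included, which favours larger medians in either direction.

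The labelled cell type was checked against its markers. Of 20 neural stem and progenitor genes with a probe set, 17 were measured, and all 17 reached the filter signal on all 4 arrays. Sox2, the stem cell factor, had 1949 and 1817 with rcCHIL3 and 2096 and 2014 in MHM + GF (-0.13, adjusted p = 0.11), Vim (vimentin) had 2505 and 2483 against 2561 and 2441, and Fabp7, the lipid-binding protein of radial glia, had 2168 and 2315 against 2366 and 2655. The probe set of Nes (nestin) used here was under the filter at 7 days, at 18.9 and 8.68 against 32.2 and 27.7, so that this defining marker gave no usable level there. It was tested through its MHM + GF signals at 3 days (187 and 186). The limma test called it lower with rcCHIL3 at 7 days (-0.58, SE 0.13, adjusted p = 0.0047), on these dim signals, and at 3 days (-2.19, SE 0.13). Markers of microglia and macrophages (11 genes), endothelium (8) and erythroid cells (2) had no measured gene, and the highest signals among them on a day 7 array were 26.3, 18.0 and 7.41.

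Within the stem and progenitor group, 9 genes were lower, 1 was higher and 7 did not pass the test, beside 22.4% in each direction over all genes, with a median of -0.29. Egfr, the receptor of EGF, had 380 and 375 with rcCHIL3 and 757 and 844 in MHM + GF (-1.04, SE 0.07). Sox1 had 266 and 255 against 479 and 395 (-0.70, SE 0.16), Nfib, a gliogenic factor, had 522 and 512 against 877 and 787 (-0.66, SE 0.08), and Bmi1, the polycomb protein of self-renewal, had 309 and 295 against 489 and 448 (-0.60, SE 0.07). Pax6 fell by 0.58 (SE 0.08). Sox3, a close relative of Sox2, was the exception, with 207 and 201 against 144 and 149 (0.43, SE 0.08). Egfr went from 819 to 800 in MHM + GF between the days and from 216 to 378 in rcCHIL3, so its difference at 7 days was smaller than at 3 days by 0.78 (SE 0.10, adjusted p = 9.1e-05).

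The neuroblast and interneuron genes had the lowest median of the 22 groups with at least 4 measured genes. Of 20 with a probe set, 15 were measured, 11 were lower and 2 higher, beside 22.4% in each direction over all genes, with a median of -1.34. Genes that passed the filter through the MHM + GF arrays alone are part of the 15 and lower that median. Among the 8 at the filter signal on all 4 arrays 4 were lower and 2 higher. With no filter 13 of the 20 were lower and 2 higher, with a median of -0.89. Dcx, the microtubule protein of migrating neuroblasts, had 69.6 and 64.8 with rcCHIL3 and 223 on both MHM + GF arrays (-1.48, SE 0.09). Gad1, which makes GABA, had 188 and 186 against 542 and 496 (-1.38, SE 0.07), Elavl4, a neuronal RNA-binding protein, had 24.1 and 21.4 against 145 and 130 (-1.88, SE 0.10), and Tubb3, the neuronal tubulin, had 18.4 and 18.5 against 111 and 85.6 (-1.61, SE 0.12). Cd24a fell by 0.97 and Map2, the dendritic microtubule protein, by 0.49. The exceptions were Tagln3, a calponin-like protein of neurons, with 556 and 544 against 233 and 220 (1.21, SE 0.08), and Elavl3 (0.36, SE 0.08).

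These genes too had the opposite sign at 3 days, where 13 of the 15 were higher with rcCHIL3 and 2 lower, with a median of 0.94, beside 27.7% higher over all tested probe sets. The effect was smaller at 7 days for all 15 (22.7% of tested probe sets). Over the days all 15 rose in MHM + GF (31.1% of tested probe sets, median 1.36), and 11 fell in rcCHIL3 (17.9%) and none rose (median -0.84). These comparisons share the day 7 arrays with the difference between media. Dlx1, Dlx5, Tubb3, Elavl4 and Sp8 passed the filter at 7 days through the MHM + GF arrays alone. That favours a rise in MHM + GF and a smaller effect at 7 days for them. Dlx1 went from 15.8 to 544 in MHM + GF and from 204 to 39.9 in rcCHIL3, and its effect differed between the days by -5.88 (SE 0.14). Tagln3 rose in MHM + GF from 42.9 to 226 and fell in rcCHIL3 from 765 to 550, so that it stayed higher with rcCHIL3.

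**Figure D4:**
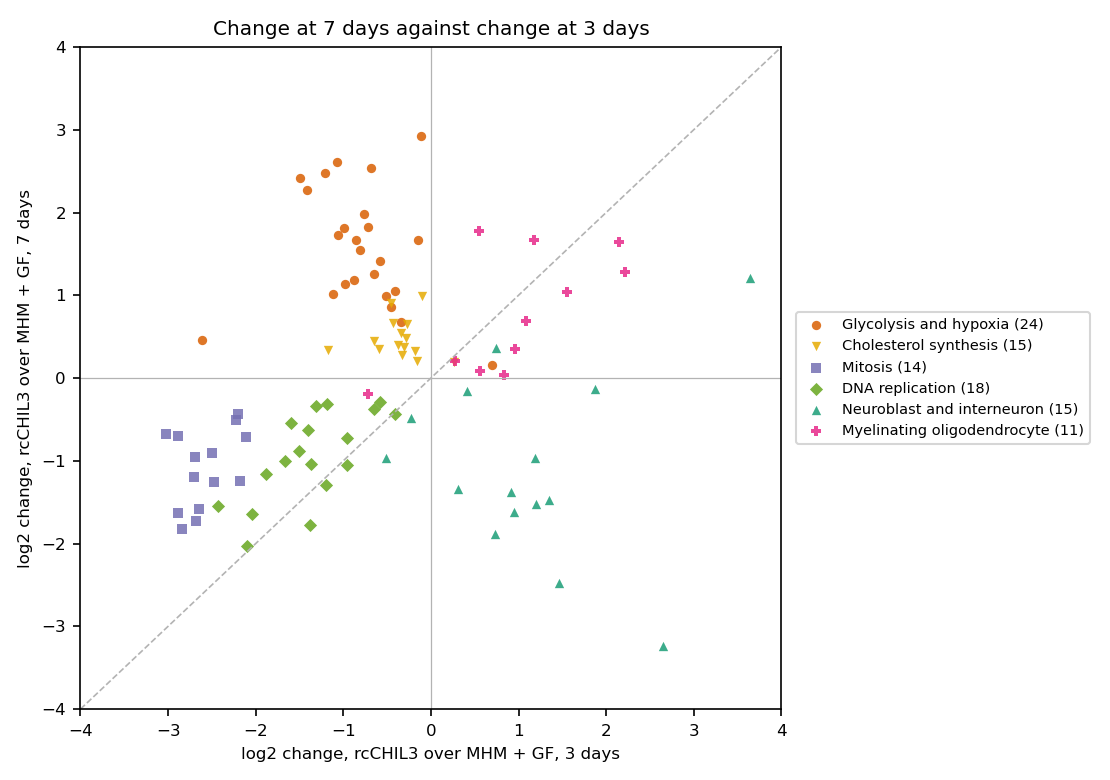
Log2 change at 7 days (vertical axis) against that at 3 days (horizontal axis), rcCHIL3 over MHM + GF, for the measured genes of 6 groups (number of genes in the legend), with the dashed line marking equal change. Glycolysis and hypoxia and cholesterol synthesis lie mostly at upper left, the neuroblast genes mostly at lower right, and mitosis at lower left above the dashed line.

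Notch genes were lower for 7 of 11 and higher for 1, beside 22.4% in each direction over all genes, with a median of -0.65. Among the 8 at the filter signal on all 4 arrays 5 were lower and 1 higher, and with no filter 8 of the 15 were lower and 1 higher. Hes5, the main effector of Notch in NSCs, had 106 and 98.9 with rcCHIL3 and 458 and 333 in MHM + GF (-1.75, SE 0.12). The ligands Dll3 (56.1 and 52.3 against 121 and 121; -0.93, SE 0.08) and Dll1 (192 and 198 against 330 and 334; -0.71, SE 0.07) fell, as did Notch1 itself (-0.67, SE 0.08) and Mfng, which adds sugars to Notch and passed the filter through the MHM + GF arrays alone (-1.18, SE 0.09). Hey1, another effector, went the other way, with 158 and 153 against 63.5 and 75.5 (0.98, SE 0.08). Both effectors had dropped since 3 days in both media, Hes5 from 869 to 396 in MHM + GF and from 973 to 102 in rcCHIL3.

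Of the BMP genes, 3 of 8 were higher and 2 lower, beside 22.4% in each direction over all genes. Id1, an inhibitor of differentiation that BMP induces, had 692 and 737 with rcCHIL3 and 354 and 373 in MHM + GF (0.94, SE 0.07), Id3 had 585 and 559 against 343 and 306 (0.78, SE 0.07) and Id2 rose by 0.24 (SE 0.06). The receptor Bmpr1b was lower (-0.39, SE 0.08). For Id1 and Id3 the effect did not differ between the days by the test (adjusted p = 0.22 and 0.53).

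The glial groups diverged. Of 11 measured genes of myelinating oligodendrocytes 7 were higher and none lower, beside 22.4% in each direction over all genes, with a median of 0.69. Among the 9 at the filter signal on all 4 arrays 6 were higher, and with no filter 6 of the 13 were higher and 1 lower. At 3 days 10 of the 11 had been higher and 1 lower, with a median of 0.96, beside 27.7% higher over all tested probe sets. The effect was smaller at 7 days for 7 (22.7% of tested probe sets) and larger for 3 (18.7%). At 7 days Opalin, a membrane protein of these cells that passed the filter through the rcCHIL3 arrays alone, had 87.7 and 86.0 with rcCHIL3 and 10.6 and 11.6 in MHM + GF (1.78, SE 0.11). Tspan2 had 250 and 246 against 65.1 and 63.8 (1.67, SE 0.08). Ugt8a, which makes the myelin lipid galactocerebroside, had 998 and 1015 against 316 and 302 (1.64, SE 0.06). Cldn11, a tight junction protein of myelin, had 990 and 1041 against 427 and 389 (1.28, SE 0.07). The probe sets of Mbp, a main protein of myelin, disagreed. The brightest, at 2653 and 2801 against 2690 and 2606, was not called (0.04, SE 0.06), while 5 of the 7 at usable signal were higher and none lower, over a range of 0.04 to 1.58. Of 11 progenitor genes of the same lineage 2 were higher and 2 lower, and with no filter 1 and 2. Olig2 had 179 and 146 against 336 and 329 (-0.96, SE 0.09), and Pdgfra, the receptor that defines these progenitors, was not called (-0.21). Enpp6, a marker of newly formed oligodendrocytes, rose by 0.44 (SE 0.15), a call that was lost without MHM + GF replicate 2 (0.21, adjusted p = 0.29) and without either rcCHIL3 array of 7 days (adjusted p = 0.12 and 0.10).

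Of 18 measured astrocyte genes 6 were higher and 2 lower, and 10 did not pass the test, beside 22.4% in each direction over all genes, with a median of -0.003 that took the other sign on the deposited scale (0.10) and after quantile normalization (0.09). Slc1a2, a glutamate transporter, rose by 0.83 (SE 0.12), Cd44, a hyaluronan receptor, by 0.82 (SE 0.08), the calcium-binding protein S100b by 0.80 (SE 0.07) and Gfap by 0.43 (SE 0.09), from 1101 and 1189 to 1538 and 1555. Aldh1l1, a folate enzyme used as a pan-astrocyte marker, had 457 and 423 with rcCHIL3 and 608 and 695 in MHM + GF (-0.54, SE 0.09). Ependymal and ciliary genes were higher for 5 of 8 and lower for Otx2 alone (-0.46, SE 0.09), beside 22.4% in each direction over all genes. Among the 4 at the filter signal on all 4 arrays 2 were higher and 1 lower, so that the other rises followed in part from the filter, and with no filter 7 of the 15 were higher and 1 lower. Tppp3, a tubulin-binding protein, had 546 and 541 against 84.4 and 83.7 (2.44, SE 0.08), Foxj1, the master factor of motile cilia, had 269 and 281 against 129 and 149 (0.89, SE 0.09), and Rsph1, of the ciliary radial spoke, had 128 and 129 against 39.7 and 52.9 (1.17, SE 0.12).

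Of the 9 mural and fibroblast markers, Pdgfrb and Rgs5 were measured, and both were lower, beside 22.4% lower over all genes. Pdgfrb, the receptor of pericytes, had 17.4 and 17.6 with rcCHIL3 and 187 and 211 in MHM + GF (-2.55, SE 0.10), and Rgs5, a regulator of G protein signaling, had 48.73 and 49.97 against 227 and 237 (-1.86, SE 0.11). Both passed the filter through the MHM + GF arrays alone, so their direction follows from the filter. The other 7 markers, Acta2, Col1a1, Col1a2, Col3a1, Lum, Dcn and Anpep, reached at most 49.6 on any day 7 array. Summed over the 9 markers the signal was 148 to 153 with rcCHIL3 and 486 to 545 in MHM + GF, and most of that difference came from Pdgfrb and Rgs5. With no filter 2 of the 9 markers were lower and none was higher, with a median of -0.05. The summed difference moved with the medium, and its part in the other results was not tested.

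Of 14 measured genes of matrix and adhesion, 7 were lower, 4 higher and 3 not called, with a median of -0.20, beside 22.4% in each direction over all genes. Ncan (neurocan), a brain proteoglycan, had 290 and 281 with rcCHIL3 and 824 and 818 in MHM + GF (-1.46, SE 0.06), its relative Vcan (versican) fell by 0.68 (SE 0.08), Nid1, of basement membranes, by 1.08 (SE 0.11), and Sparc by 0.67 (SE 0.09). The integrin chains Itgav, Itga6 and Itgb1, which bind matrix proteins, rose by 0.44, 0.30 and 0.28. Fn1 went from 193 to 63.3 in MHM + GF and from 21.5 to 365 in rcCHIL3, and its effect differed between the days by 4.57 (SE 0.15).

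**Figure D5:**
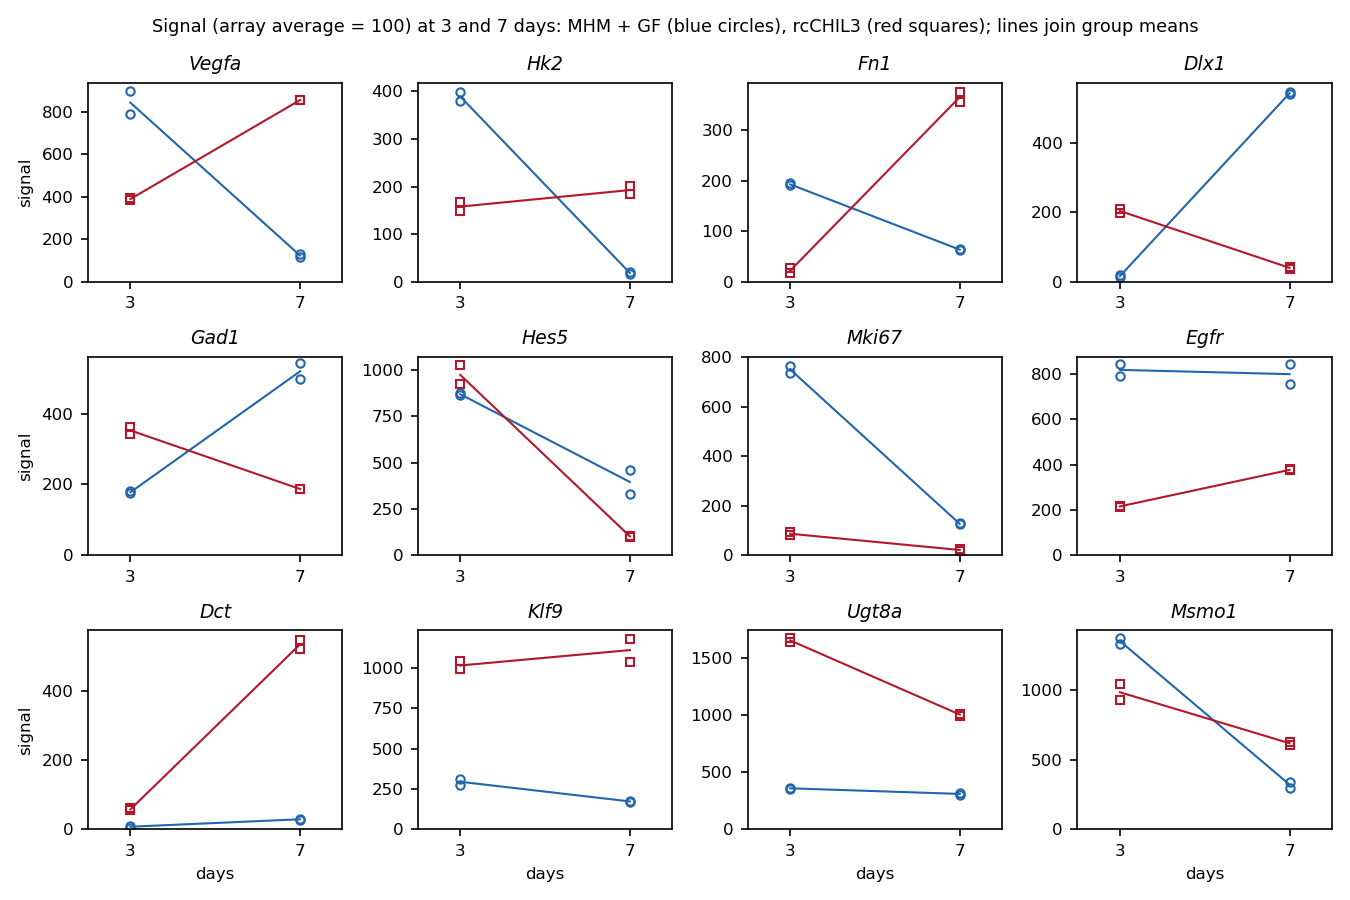
Signal (array average 100) at 3 and 7 days of 12 genes in MHM + GF (blue circles) and rcCHIL3 (red squares), each symbol 1 array, with lines between the means of 2 arrays. The lines cross for Vegfa, Hk2, Fn1, Dlx1, Gad1, Msmo1 and Hes5 (for Hes5 the 3-day difference did not pass the test), run apart for Dct and Klf9, and approach each other for Mki67, Egfr and Ugt8a.

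Genes of amino acid and endoplasmic reticulum stress were higher for 7 of 16 and lower for 1, beside 22.4% in each direction over all genes, with a median of 0.20. Atf3, a stress-induced factor, had 96.1 and 101 with rcCHIL3 and 36.8 and 33.1 in MHM + GF (1.11, SE 0.10), Slc3a2, a subunit of amino acid transporters, rose by 0.66 (SE 0.07), Xbp1 by 0.55 (SE 0.07) and Ddit3 (CHOP) by 0.49 (SE 0.09). Atf4, which drives much of the group, was not called (0.07). Phgdh, the first enzyme of serine synthesis, was lower, at 1449 and 1521 against 1970 and 2008 (-0.42, SE 0.06). Interferon and class I genes were higher for 5 of 8 and lower for none, for 3 of the 6 at the filter signal on all 4 arrays, and with no filter for 7 of 18, beside the same 22.4%. Gbp3, a guanylate-binding GTPase, at 71.9 and 68.2 against 16.0 and 15.4 (1.33, SE 0.10), and Ifit3 (0.80, SE 0.10) passed the filter through the rcCHIL3 arrays alone. Also higher was the class I chain H2-K1 (0.47, SE 0.07). The probe sets of H2-K1 disagreed, ranging from 0.00 to 0.47.

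Lysosomal genes showed no common direction, with 3 of 16 higher and 4 lower, beside 22.4% in each direction over all genes, and a median of 0.01 that turned negative after quantile normalization (-0.03) and median centring (-0.01). The cathepsins Ctsb (1299 and 1365 against 850 and 867; 0.62, SE 0.06) and Ctsd (0.47, SE 0.06) were higher, while Npc2, a cholesterol carrier, was lower by 0.27 (SE 0.07) and Gaa, which breaks down glycogen, by 0.39 (SE 0.09). The call for Gaa was lost without rcCHIL3 replicate 1 at 7 days (-0.28, adjusted p = 0.063) and that for Npc2 without MHM + GF replicate 2 (-0.20, adjusted p = 0.067). Of 15 genes of ribosome biogenesis 3 were lower and none higher, a count near the 22.4% lower over all genes, with Fbl (fibrillarin) at -0.39 (SE 0.07), Npm1 (nucleophosmin) at -0.32 (SE 0.06) and Nop56 at -0.22 (SE 0.08). The probe sets of Ncl (nucleolin) disagreed, with 2 lower (-0.74 and -0.53), 1 higher (0.47) and the brightest at -0.02. Fbl, Npm1 and Nop56 did not pass the threshold on the deposited scale (adjusted p = 0.079, 0.090 and 0.52), and the call for Nop56 was lost without any single day 7 array (adjusted p = 0.092 to 0.14) or either rcCHIL3 array of 3 days (both 0.055).

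Chil3 had no usable signal on any day 7 array. Its signals were 0.353 and 0.441 with rcCHIL3 and 0.355 and 1.51 in MHM + GF, at the bottom of the scale. Chil1, a member of the family that passed the filter through the rcCHIL3 arrays alone, had 57.7 and 56.2 with rcCHIL3 and 33.3 and 26.1 in MHM + GF (0.63, SE 0.11), and Lgals3, a galectin, had 439 and 475 against 302 and 397 (0.38, SE 0.12). Il13ra2, a receptor of chitinase-like proteins, stayed at or under 9.03. The call for Lgals3 was lost without MHM + GF replicate 1 (0.19, adjusted p = 0.23) and without rcCHIL3 replicate 1 or 2 (adjusted p = 0.054 and 0.14).

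Over all probe sets, the difference at 7 days overlapped in part with that at 3 days. At 3 days 28.6% of the 14586 were higher and 20.3% lower. Of the 3226 higher at 7 days, 1419 (44.0%) were also higher at 3 days, which is 34.0% of those higher at 3 days, while 484 were lower at 3 days, or 15.003%. Of the 3300 lower at 7 days, 1186 (35.9%) were also lower at 3 days, which is 40.0% of those lower at 3 days, and 651 (19.7%) were higher. Kcna1, Pcp4, Klf9, Pmp22 and Tppp3 were among the named genes that were higher on both days, and Mcm5, Mcm7, Pclaf and Nnat among those lower on both.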

How the data were processed

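RNA of 8 neurosphere cultures (2 media, 2 times, 2 arrays each) had been labelled from 100 ng and hybridised to Affymetrix arrays of the whole mouse genome, 1 per sample. The deposited values are MAS5 signal intensities on a linear scale, made by the authors with default settings (Expression Console 1.1 in the submitters' processing notes), without detection calls. Here each array was rescaled to an average of 100 and log2(signal + 20) was taken. Of 45101 probe sets, 64 array controls were left out, 34958 carried 1 gene symbol and 932 several (those name no gene here). Probe sets at a signal of 50 or more on at least 2 of the 8 arrays were tested with limma 3.58.1 in R 4.3.3: 4 group means fitted over all 8 arrays, eBayes with a trend (4 residual and 7.203 prior degrees of freedom), two-sided tests, Benjamini-Hochberg adjustment over 15679 probe sets and a threshold of 0.05. The fit was tested on simulated data. A gene is represented by its brightest probe set. Nothing ties the 2 experiments of a group to separate animals, so the p-values measure the spread between these arrays, which may be technical.

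Genes were named by rule: the 15 largest rises and falls (the brighter medium averaging 200 or more, no overlap between media), the 4 called genes of each list that changed furthest, the largest opposite one, Chil3, Chil1 and markers. Other list genes were named as examples with their values known. The comparison and the gene lists were chosen with earlier results of these data known. Alternatives covered offset, filter, scale, variance model, the day 7 arrays alone, the methods' t-test, the replicate number as a block and each array left out. Promoter windows of 300 bases are those of RefSeq on GRCm38.p6.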

Additional observations from a re-analysis of the deposited data

Results flagged for a closer look

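For 85 of the 108 named genes the rcCHIL3 effect differed between 7 and 3 days by limma's interaction test at an adjusted p under 0.05. Over all tested probe sets the effect was larger at 7 days for 18.7% and smaller for 22.7%. Most named genes were chosen for large changes at 7 days, and the day 7 arrays enter this test. The count was thus favoured by that choice. Values are the 7-day minus the 3-day log2 change, and no explanation was tested. In 26 genes the sign was opposite on the 2 days. Higher at 7 and lower at 3 days were Ddit3 (0.88), Nsdhl (0.93), Fdft1 (1.096), Cspg4 (1.24), Sox3 (1.27), Msmo1 (1.36), H2-K1 (1.40), Rsph1 (1.602), Klf4 (1.93), Ifitm3 (2.54), Ero1a (3.23), Adm (3.68), Hk2 (3.69), Vegfa (3.69) and Fn1 (4.57). Lower at 7 and higher at 3 days were Dlx1 (-5.88), Dlx2 (-3.94), Insm1 (-3.76), Pdgfrb (-3.50), Angptl4 (-3.41), Nbl1 (-2.65), Elavl4 (-2.62), Tubb3 (-2.56), Rnase4 (-2.51), Phgdh (-0.79) and Gaa (-0.72).

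Called at 7 days and not at 3 days were 15 genes: Rgs5 (-2.05), Tcl1b3 (-2.01), Hes5 (-1.91), Olig2 (-0.78), Sox1 (-0.76), Npc2 (-0.26), Xbp1 (0.61), Cdkn1a (0.80), Atf3 (0.93), Ier3 (0.99), Slc1a2 (1.07), Dhcr7 (1.101), Phlda1 (1.18), Gbp3 (1.26) and Gbe1 (3.04).

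Of 44 genes with 1 direction on both days, 22 had the larger effect at 7 days: Mdk (-1.21), Ncan (-0.85), Cyp2j9 (-0.77), Ccnd2 (-0.74), Mfng (-0.65), Mcm7 (-0.40), Bmi1 (-0.40), Pik3ip1 (-0.38), Pmp22 (0.41), Tspan2 (0.49), Rarres2 (0.64), Kcna1 (0.72), Hey1 (0.73), Klf9 (0.83), Egr2 (0.91), Phlda3 (0.92), Carns1 (1.06), Pcp4 (1.14), Opalin (1.23), Mal (1.67), Hspb6 (1.73) and Dct (1.99). The other 22 had the smaller effect at 7 days: Tagln3 (-2.43), Enpp6 (-1.62), Agt (-1.40), Lgals3 (-1.23), Cldn11 (-0.94), Cd44 (-0.73), S100b (-0.69), Ugt8a (-0.51), Chil1 (-0.45), Id2 (-0.35), Olig1 (0.29), Rrm2 (0.39), Dll3 (0.59), Aldh1l1 (0.70), Nnat (0.72), Egfr (0.78), Uhrf1 (0.88), Top2a (0.96), Mki67 (1.02), Ccna2 (1.07), Ube2c (1.26) and Etv5 (2.36).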

How the results depend on the processing

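Of 1396 recomputations of the 108 named genes under other settings, 1265 kept direction and side of the threshold, 131 kept the direction and lost the call, and none reversed. The methods' t-test after Benjamini-Hochberg adjustment made 106 of those losses and called 21 probe sets higher and 16 lower, against 2516 and 2628 unadjusted at 0.05. The deposited scale gave 2337 lower probe sets at 7 days in place of 3556, and 1965 with a smaller effect at 7 than at 3 days in place of 3552. With 1 array left out, which leaves a group of 1 array assumed to vary like the others, the counts ran from 2519 to 3351 higher, 2522 to 3540 lower, 2303 to 2900 with a larger effect at 7 days and 2746 to 3332 with a smaller one. Named genes lost the call in 16 of 864 such fits. Same-numbered arrays did not deviate together (correlations of -0.011 to 0.10), so the numbers were not taken as pairs. With the replicate block 3469 were higher, 3734 lower, 3087 larger and 3668 smaller at 7 days. With 2 arrays a group, small changes and dim probe sets carry the widest error.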

Other observations

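Some genes outside the lists changed by more than 2-fold at 7 days and were chosen after their values were seen. Among those higher with rcCHIL3, Pvalb, the calcium buffer parvalbumin, had 269 and 284 against 36.9 and 61.5 (log2 change 2.12, SE 0.15). Bsg (basigin), a chaperone of lactate transporters, had 1632 and 1753 against 438 and 408 (1.95, SE 0.08), and Higd1a, a mitochondrial protein induced by low oxygen, had 1487 and 1575 against 370 and 400 (1.94, SE 0.06). Tfrc, the transferrin receptor, had 888 and 889 against 244 and 261 (1.74, SE 0.06). The media did not overlap in any of these genes, but they were chosen for large called changes, so the separation adds no further evidence.

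Among those lower, Sox11, a factor of immature neurons, had 316 and 286 with rcCHIL3 and 802 and 730 in MHM + GF (-1.29, SE 0.07), and Scg3, a protein of secretory granules, had 85.6 and 86.9 against 289 and 342 (-1.65, SE 0.10). Hmgb2, a chromatin protein of dividing cells, had 282 and 279 against 743 and 701 (-1.30, SE 0.06). Kcnk2, a potassium channel, had 256 and 248 against 687 and 721 (-1.41, SE 0.07). Rnase1, a secreted ribonuclease, was lower at 7 days (-1.37, SE 0.10) and higher at 3 days (2.19), a difference of -3.57 between the days.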
